A study of Mus musculus with 6 samples.

Results

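Invariant natural killer T (iNKT) cells are T cells with a nearly uniform T cell receptor that recognises lipids on CD1d, and they release cytokines and chemokines quickly after stimulation. Described here are 6 chemokine ligand genes in single iNKT cells of the liver, spleen and lymph node: Ccl1, Ccl3, Ccl4, Ccl5, Xcl1 and Cxcl10. They were taken by symbol, and all 6 were found once among the 27998 genes listed. The cells came from wild-type (WT) C57BL/6 mice aged 5 weeks, and no treatment of mice or cells is named. CD8+ and B220+ cells were depleted on magnetic beads, and TCR-β+ cells that bound the CD1d tetramer were then sorted, so a cell whose receptor the tetramer missed was not captured. Each organ had 2 libraries, described in the study as biological repeats. How many mice each library pooled was not stated, so a p-value measures the spread between these libraries, which may be partly technical.

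After filters on genes per cell and mitochondrial reads, 16532 of 16587 cell barcodes were kept: 5662 from the liver, 5384 from the spleen and 5486 from lymph node. Summed UMIs (unique molecular identifiers, each marking 1 captured transcript) per library ranged from 4758138 to 10870838, and the median per cell from 1470 to 3592, highest in the liver. Pairs of libraries shared 6 to 20 barcodes. Cd3g, part of the T cell receptor complex, had a UMI in 90.17% to 95.89% of the cells of each library, and Zbtb16, the transcription factor of the lineage, in 8.814% to 20.1%. Summed over 9 genes, myeloid markers stood at 2.484 to 30.35 CPM (UMIs in 1000000 UMIs of the genes kept) in 5 libraries and at 124.6 in lymph node replicate 2. Xist, expressed from the inactive X chromosome, had 5401 to 10404 UMIs in the liver and spleen libraries but none in those of the lymph node, which instead held 1362 and 1579 UMIs of Y-linked genes. The sex of the mice therefore cannot be told apart from the difference between lymph node and the other organs.

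Chemokine ligands are small secreted proteins that draw in cells bearing the matching G protein-coupled receptor. Ccl3, Ccl4 and Ccl5 draw in T cells and myeloid cells, and Xcl1 acts through Xcr1 on cross-presenting dendritic cells. Cxcl10 acts through Cxcr3 on activated T and NK cells and is a classical interferon-induced gene, and Ccl1 acts through Ccr8. Liver iNKT cells are known to patrol the sinusoids, and NK-like T cells commonly hold Ccl5 and Xcl1 transcripts before any stimulation.

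On GRCm38, Ccl3, Ccl4 and Ccl5 lie close together on chromosome 11, and Ccl1 lies farther off on the same chromosome, where its annotated span, chr11:82176657-82305690 on the minus strand, is far longer than those of the others and reaches beyond the RefSeq start used below. Ccl5 spans chr11:83525778-83530518 on the minus strand, Ccl3 chr11:83647844-83649355 on the minus strand and Ccl4 chr11:83662584-83664683 on the plus strand. Xcl1 lies at chr1:164931644-164935527 and Cxcl10 at chr5:92346638-92348889, both on the minus strand. All 6 are annotated as protein-coding. The 250 bases before the start of transcription are shown for Cxcl10, highest in the liver, and Ccl1, detected almost only in the lymph node, both from RefSeq on GRCm38.p6 and printed 5′ to 3′ on the gene's own strand. Capitals mark matches to 3 motifs: the interferon-stimulated response element (ISRE, GAAA followed after any 2 bases by GAAA), the AP-1 site (TGANTCA) and the NF-kB consensus.
Cxcl10: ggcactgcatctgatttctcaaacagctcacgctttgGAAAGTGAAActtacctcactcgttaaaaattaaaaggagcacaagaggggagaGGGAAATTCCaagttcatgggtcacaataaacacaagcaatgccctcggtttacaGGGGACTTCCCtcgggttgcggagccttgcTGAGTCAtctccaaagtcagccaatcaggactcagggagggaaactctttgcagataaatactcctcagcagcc
Ccl1: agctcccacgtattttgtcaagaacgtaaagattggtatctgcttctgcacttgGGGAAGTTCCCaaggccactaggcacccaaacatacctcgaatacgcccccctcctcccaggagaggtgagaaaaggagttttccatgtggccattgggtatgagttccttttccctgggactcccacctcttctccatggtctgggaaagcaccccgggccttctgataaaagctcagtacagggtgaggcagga
The Cxcl10 window lies at chr5:92348890-92349139 and the Ccl1 window at chr11:82179813-82180062, both on the minus strand. Searched on both strands, the Cxcl10 window held 1 ISRE match 213 to 204 bases before the start, NF-kB matches at 159 to 150 and, overlapping each other, at 104 to 94, and 1 AP-1 match at 74 to 68 bases. The Ccl1 window held overlapping NF-kB matches at 196 to 186 bases before the start. Of 32851 promoters of that length, 2.98% held the ISRE letters, 6.75% the AP-1 letters and 7.25% the NF-kB consensus. The windows of Xcl1 and Ccl3 held none of the 3, but the bases after the start used for Ccl3 were not found in its transcript. These matches describe the sequence and do not show that a factor binds.

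Of the 6 ligands, Ccl5 had by far the most UMIs, 102701 in 12001 cells, and the 6 libraries showed 4 kinds of pattern (plot of levels by library). Ccl5 and Xcl1 were lower in the lymph node than in the other organs, Cxcl10 was higher in the liver than elsewhere, Ccl1 was detected almost only in the lymph node, and Ccl3 and Ccl4 were rare throughout. Levels in CPM allow a gene to be compared between libraries. Organs were compared with edgeR's quasi-likelihood test on the summed UMIs of each library, and a gene was called at an adjusted p below 0.05 over all genes tested. Ccl1 passed the filter on low counts through its lymph node UMIs alone, so its tests are not counted, and Ccl3, with 25 UMIs, did not pass it. Between liver and spleen 1 of the other 4 ligands was called (Cxcl10), against 25.9% of the 10251 genes tested. Of these 4, 3 were called between liver and lymph node (Ccl5, Xcl1 and Cxcl10), against 37.5% of genes, and 2 between spleen and lymph node (Ccl5 and Xcl1), against 18.2%. Summed over all cells, a ligand's level moves with the mix of cell classes, and fewer cells of a class and less RNA per cell cannot be told apart.

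**Figure D1:**
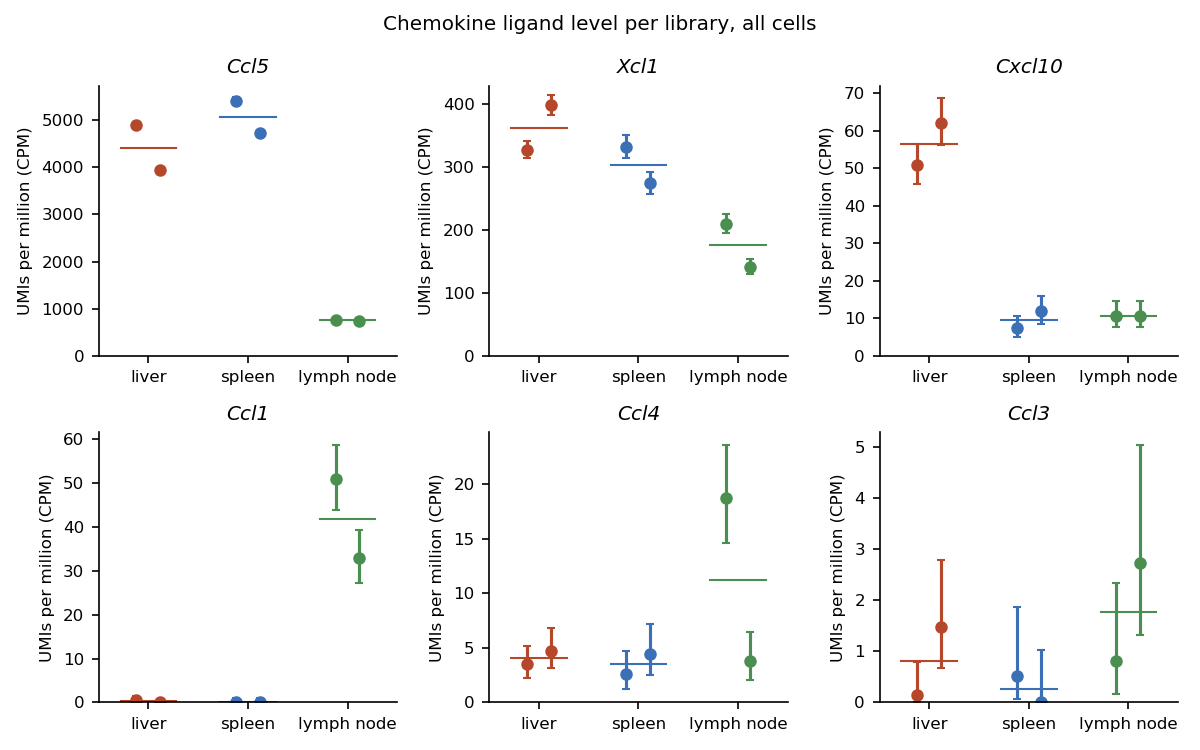
Level of each chemokine ligand gene in each of the 6 libraries, in CPM, with 1 panel per gene. Points are libraries with a 95% Poisson interval that covers counting error only, and lines are organ means. The lymph node libraries stand lowest for Ccl5 (764.2 and 741.3 CPM) and highest for Ccl1, and the liver libraries stand apart for Cxcl10.

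Cells were grouped into classes by clustering without the ligand genes and named from marker lists, each name being no more than a likeness to its markers. The iNKT1-like class, with markers of the interferon-γ-producing subset, held 4009 liver, 3677 spleen and 1334 lymph node cells. An iNKT17-like class held 57, 84 and 1883 cells, and a class with markers of recent thymic emigrants (RTE-like) held 341, 1066 and 306. Smaller classes were led by interferon-induced genes (Ifit-like, 144, 123 and 121 cells), by NF-kB response genes (NF-kB-like, 526, 76 and 24), by Gzma and NK receptor genes such as Klra9 and Ncr1 (Gzma-like, 316, 146 and 33) and by cell cycle genes (cycling-like, 201, 143 and 134). An iNKT2-like class of 12, 8 and 760 cells rested on few markers, with 2 of them at least 2-fold above the rest of its cluster, and 34, 58 and 886 cells stayed unnamed. The iNKT1-like cells sat in different clusters by organ: 3806 of the liver cells in a cluster led by Bcl2 and Mmp9, 3543 of the spleen cells in a cluster led by Art2b, and 1102 of the lymph node cells in 1 part of a cluster of 2886 cells made up almost wholly of lymph node cells. The iNKT1 markers were higher than in all other cells by a median of 0.81 on the log2 scale in the liver-dominated cluster and by 0.30 in the spleen-dominated one, where none was 2-fold higher. In the lymph node part they were higher by 1.16, but over the rest of its cluster only. That whole cluster stood at -0.83 against all other cells, with none 2-fold higher, so the 1.16 cannot be set beside the other values.

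Ccl5, a chemokine stored and released by memory and cytotoxic lymphocytes, was the ligand found in the most cells. It stood at 4890 and 3934 CPM in the liver, 5411 and 4722 CPM in the spleen and 764.2 and 741.3 CPM in the lymph node. The lymph node libraries lay far below the others, while the liver and spleen libraries overlapped. On the log2 scale Ccl5 was 2.49 ± 0.14 (SE) higher in liver than in lymph node (edgeR adjusted p = 4.76e-16), and 2.77 ± 0.14 higher in spleen than in lymph node (edgeR adjusted p = 8.43e-17). The liver-spleen difference of -0.28 ± 0.13 did not pass (edgeR adjusted p = 0.110).

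A Ccl5 UMI was found in 97.57% and 91.89% of liver cells, 91.54% and 91.98% of spleen cells, and 33.81% and 28.34% of lymph node cells. Because liver cells had more UMIs, each cell was also thinned to 1000 UMIs, which left out 9 liver, 313 spleen and 753 lymph node cells that were shallower. The shares then read 80.72% and 75.07% for liver, 80.85% and 80.49% for spleen, against 25.07% and 20.04% for lymph node. After thinning, too, both lymph node libraries lay far below the others. Single cells reached 165 Ccl5 UMIs in the liver, 114 in the spleen and 121 in the lymph node.

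By class, Ccl5 was highest in the Gzma-like cells, with 11640 and 10020 CPM in the liver libraries, 11360 and 14400 CPM in the spleen and 26130 and 20210 CPM in the 33 such cells of the lymph node. The Gzma-like cells of the lymph node thus lay at or above those of the other organs, unlike the lymph node cells as a whole. The iNKT1-like cells stood at 5194 and 4207 CPM in liver, where Ifit-like cells were level with them (4739 CPM against 4774 over the organ), 7416 and 6412 CPM in spleen and 2040 and 1723 CPM in lymph node. They held 69.36%, 78.18% and 46.16% of the organ's Ccl5 UMIs in 70.81%, 68.29% and 24.32% of its cells. The lowest class in liver and spleen among those with at least 20 cells in each library was iNKT17-like, at 978.8 and 836.6 CPM (155 and 121 UMIs), and in the lymph node it stood at 141.0 CPM (plot of levels by class).

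**Figure D2:**
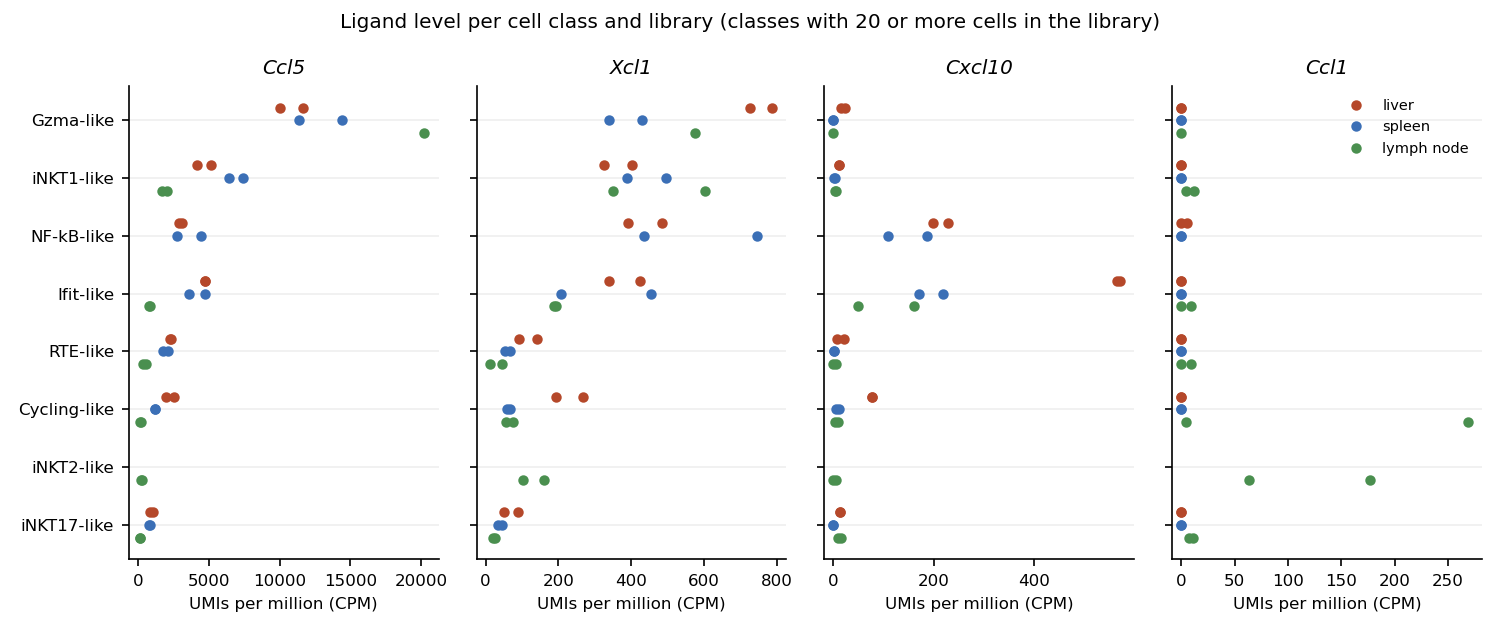
Levels of Ccl5, Xcl1, Cxcl10 and Ccl1 in CPM by cell class and library, for classes with at least 20 cells in a library. Points are libraries coloured by organ. Ccl5 is highest in Gzma-like cells and Cxcl10 in Ifit-like and NF-kB-like cells. The lymph node levels of Ccl1 rest on few cells, 4 of which hold 76.77% of its UMIs.

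Transcripts released from broken cells give UMIs in cells that do not express a gene, and iNKT17-like cells, a subset known for little Ccl5, show how much of the signal could be of that kind. At 1000 UMIs per cell, a Ccl5 UMI was found in 42.11% (95% Wilson interval 30.19 to 55.02) of the liver iNKT17-like cells, 47.56% (37.1 to 58.23) of the spleen's and 10.04% (8.726 to 11.53) of the lymph node's. The share in iNKT1-like cells was 80.49% (79.24 to 81.69) in liver, 90.29% (89.25 to 91.23) in spleen and 43.71% (40.74 to 46.73) in lymph node, above the iNKT17-like share in every organ. Before thinning, the iNKT17-like shares were 87.72%, 78.57% and 17.1%, at median depths of 2562, 1656 and 1382 UMIs per cell, and the iNKT1-like shares 95.46%, 95.02% and 48.65%, at 2085, 1104 and 955 UMIs per cell (both without the ribosomal genes left out of the analysis, which the thinning includes). The lymph node iNKT2-like share of 12.47% and cycling-like share of 15.79% stood little above the iNKT17-like one. The iNKT17-like level of Ccl5 was 16.47% of the level over all cells in spleen, 18.73% in lymph node and 22% in liver, from few such cells in liver and spleen. What share of these UMIs came from free RNA was not tested.

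**Figure D3:**
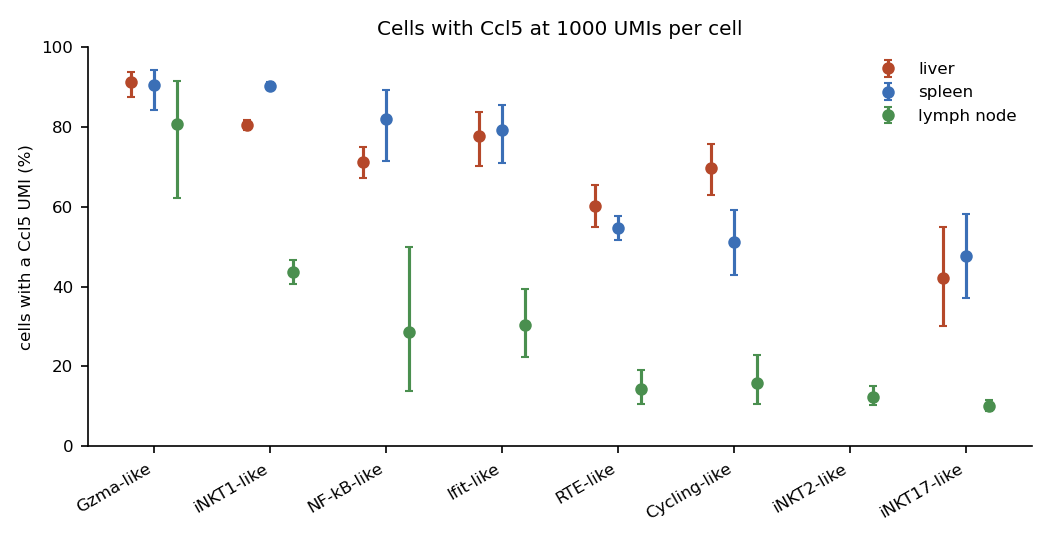
Share of cells with a Ccl5 UMI after each cell was thinned to 1000 UMIs, by class and organ, with 95% Wilson intervals that cover counting error only. In every class shown with cells of all 3 organs the lymph node share lies below the liver and spleen shares, and among the few Gzma-like cells the intervals overlap (80.77% in lymph node against 91.14% in liver).

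Within the iNKT1-like class Ccl4 passed the filter on low counts through its lymph node UMIs alone and Cxcl10 through its liver UMIs alone, so their tests are not counted. Of the other ligands tested, Ccl5 and Xcl1 were both called between liver and spleen, against 24.8% of the 9255 genes tested, and both between liver and lymph node, against 20.4%. Ccl5 was called between spleen and lymph node, against 7.96%. Ccl5 was 0.64 ± 0.14 lower in liver than in spleen iNKT1-like cells on the log2 scale (edgeR adjusted p = 5.57e-05), a difference not called over all cells. It was 1.22 ± 0.14 higher in liver than in lymph node (edgeR adjusted p = 3.32e-16) and 1.86 ± 0.14 higher in spleen than in lymph node (edgeR adjusted p = 3.88e-36). Without the part of the lymph node cluster, the lymph node differences were 1.65 ± 0.16 (edgeR adjusted p = 3.48e-21) and 2.28 ± 0.16 (edgeR adjusted p = 4.47e-40), so the lower level did not rest on that part (plot of fold changes). The lymph node cells left were few, 122 in the liver-dominated cluster and 110 in the spleen-dominated one. They stood at 698.7 and 2551 CPM (94 and 277 UMIs).

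RTE-like cells, which carry markers of cells that left the thymus lately, held less Ccl5 than iNKT1-like cells, with 2342 and 2243 CPM in liver, 2095 and 1768 CPM in spleen and 371 and 585 CPM in lymph node. In this class only Ccl5 and Xcl1 of the 6 ligands passed the filter on low counts. Between liver and lymph node both were called, against 8.64% of the 5298 genes tested, and 1 of them was called between spleen and lymph node (Ccl5), against 3.32%, and between liver and spleen (Xcl1), against 6.68%. Ccl5 was 2.21 ± 0.17 higher on the log2 scale in liver RTE-like cells than in lymph node ones (edgeR adjusted p = 4.96e-13) and 1.99 ± 0.17 higher in spleen ones (edgeR adjusted p = 5.14e-12). Liver and spleen RTE-like cells differed by 0.22 ± 0.14 (edgeR adjusted p = 0.388). After thinning, a Ccl5 UMI was found in 60.24% (54.92 to 65.32) of the liver RTE-like cells, 54.67% (51.63 to 57.67) of those in spleen and 14.34% (10.54 to 19.22) of those in lymph node, and the 3 intervals overlapped those of iNKT17-like cells. The Ccl5 levels did not overlap, with 2283 CPM (95% Poisson interval 2171 to 2399), 1951 CPM (1889 to 2015) and 460.1 CPM (393.9 to 534.2) in RTE-like cells of liver, spleen and lymph node, against iNKT17-like levels of 978.8, 836.6 and 141.0 CPM. By a test of the interaction of class and organ, Ccl5 and Xcl1 were both called between liver and spleen, against 0.777% of 7977 genes, and both between liver and lymph node, against 1.39%, while neither was called between spleen and lymph node, against 1.08%. Between liver and spleen the Ccl5 difference was -0.64 in iNKT1-like and 0.22 in RTE-like cells, apart by 0.81 ± 0.09 on the log2 scale (edgeR adjusted p = 7.63e-09). The calls against the lymph node were lost for both ligands without the part of its cluster (edgeR adjusted p = 0.0515 for Ccl5 and 0.307 for Xcl1). That of Xcl1 between liver and spleen was lost without liver replicate 2 (edgeR adjusted p = 0.371) or spleen replicate 1 (0.0891).

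**Figure D4:**
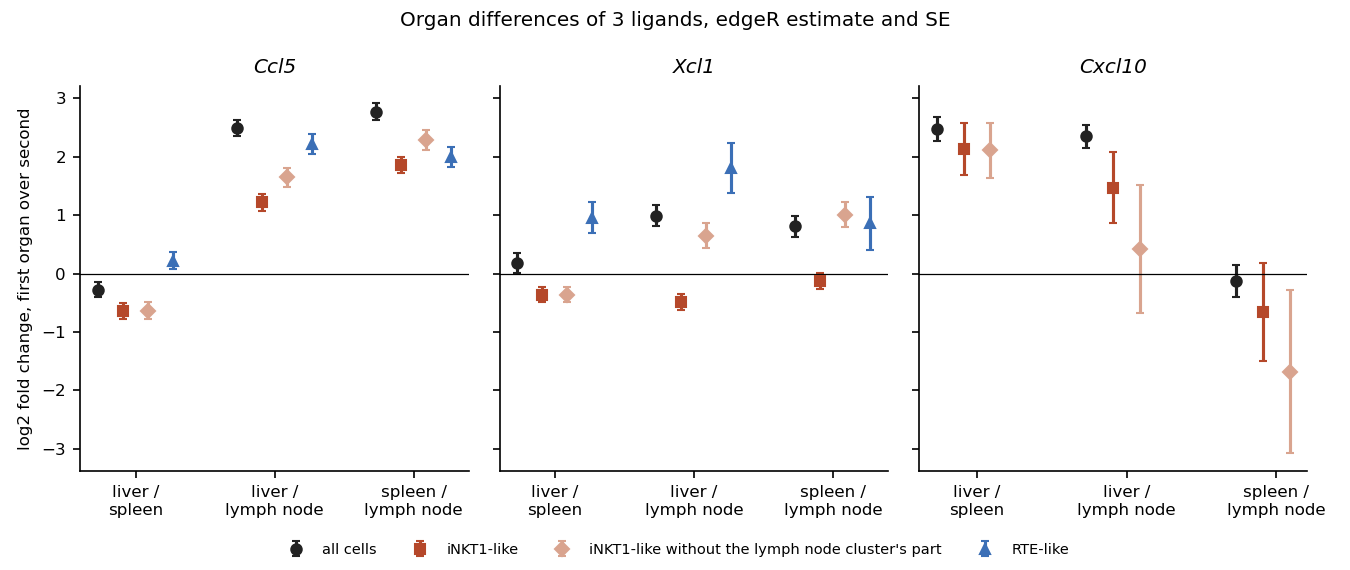
Log2 fold changes of Ccl5, Xcl1 and Cxcl10 between organs with their standard errors, over all cells, iNKT1-like cells, iNKT1-like cells without the part of the lymph node cluster, and RTE-like cells. Ccl5 stays above 0 against the lymph node in each set, while Xcl1 in iNKT1-like cells changes sign (-0.49 to 0.64 for liver against lymph node) when that part is left out. Cxcl10 passed the filter in iNKT1-like cells through the liver alone.

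Xcl1, the ligand by which NK and T cells attract Xcr1-bearing dendritic cells, had 8367 UMIs in 4909 cells (29.69% of all), and 63.25% of these cells had a single one. Its level was 327.4 and 398.6 CPM in liver, 332.6 and 274.4 CPM in spleen, and 209.8 and 141.3 CPM in lymph node. Both lymph node libraries lay below all 4 others, and the liver and spleen libraries overlapped. Over all cells Xcl1 was 0.99 ± 0.17 higher on the log2 scale in liver than in lymph node (edgeR adjusted p = 5.73e-04). It was 0.81 ± 0.18 higher in spleen than in lymph node (edgeR adjusted p = 0.00582), a call that DESeq2 did not make (adjusted p = 0.0536). Liver and spleen differed by 0.18 ± 0.17 (edgeR adjusted p = 0.466). At 1000 UMIs per cell, 17.67% and 22.12% of liver cells, 21.51% and 18.91% of spleen cells and 12.22% and 7.924% of lymph node cells had an Xcl1 UMI.

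Among classes, Xcl1 was abundant in Gzma-like cells (liver 755.2 CPM, spleen 378.3 CPM, lymph node 540.8 CPM) and in NF-kB-like cells (441.8, 565.1 and 636.4 CPM). The lymph node values come from 18 UMIs in 33 Gzma-like cells and 19 UMIs in 24 NF-kB-like cells. In iNKT1-like cells the libraries read 324.7 and 400.6 CPM in liver, 495.1 and 387.3 CPM in spleen and 601.4 and 351.1 CPM in lymph node. These ranges overlapped, and lymph node replicate 1 stood highest. The Gzma-like level lay above both iNKT1-like libraries in liver, below both in spleen and between them in lymph node. iNKT1-like Xcl1 was 0.36 ± 0.13 lower in liver than in spleen (edgeR adjusted p = 0.0215) and 0.49 ± 0.13 lower in liver than in lymph node (edgeR adjusted p = 0.00266), while spleen and lymph node differed by -0.13 ± 0.13 (edgeR adjusted p = 0.669). Neither call was made by DESeq2 (adjusted p = 0.590 and 0.549). The first was also lost without liver replicate 1 (edgeR adjusted p = 0.424) or spleen replicate 1 (0.436), and the second without liver replicate 1 (0.160) or lymph node replicate 1 (0.915).

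The comparison with the lymph node depended on which of its clusters counted as iNKT1-like. In the lymph node cells of the cluster part, Xcl1 stood at 524.4 CPM, against 156.1 and 331.6 CPM (21 and 36 UMIs) in the lymph node cells of the liver-dominated and spleen-dominated clusters. Without that part, iNKT1-like Xcl1 was higher in liver (0.64 ± 0.22, edgeR adjusted p = 0.0492) and in spleen (1.01 ± 0.21, edgeR adjusted p = 3.78e-04) than in lymph node. With the whole cluster in the class, the differences were 0.14 ± 0.16 (edgeR adjusted p = 0.536) and 0.51 ± 0.16 (edgeR adjusted p = 0.0274). No direction of Xcl1 between iNKT1-like cells of the lymph node and the other organs can therefore be given.

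RTE-like cells carried less Xcl1 than iNKT1-like cells in each library, with 90.63 and 139.9 CPM in liver, 53.9 and 67.46 CPM in spleen and 45.81 and 12.86 CPM in lymph node (82, 115 and 12 UMIs by organ). The liver libraries lay above the others. On the log2 scale Xcl1 was 0.95 ± 0.27 higher in liver than in spleen RTE-like cells (edgeR adjusted p = 0.0214) and 1.81 ± 0.43 higher than in lymph node ones (edgeR adjusted p = 0.00421). The spleen-lymph node difference was 0.86 ± 0.45 (edgeR adjusted p = 0.397). Leaving out liver replicate 2 ended both calls, spleen replicate 1 the first and lymph node replicate 2 the second, with differences of 0.53 and 1.40, 0.75, and 1.28. Under DESeq2 the second was 1.82 and was not called (adjusted p = 0.0664). iNKT17-like cells stood at 69.46, 41.48 and 23.38 CPM in liver, spleen and lymph node (11, 6 and 63 UMIs), close to the RTE-like level in spleen and lymph node. At 1000 UMIs, 3.509%, 3.659% and 1.692% of iNKT17-like cells had an Xcl1 UMI, against 8.605%, 4.139% and 3.586% of RTE-like cells.

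Cxcl10, which attracts Cxcr3-bearing lymphocytes, was the ligand that set the liver apart. It stood at 50.9 and 62.16 CPM in the liver libraries (363 and 381 UMIs), 7.459 and 11.87 CPM in spleen (29 and 43 UMIs) and 10.69 and 10.66 CPM in lymph node (40 and 39 UMIs). Both liver libraries lay above all others, and spleen and lymph node overlapped. The liver level was 2.48 ± 0.21 higher than spleen (edgeR adjusted p = 2.01e-10) and 2.34 ± 0.20 higher than lymph node on the log2 scale (edgeR adjusted p = 4.83e-11), whereas spleen and lymph node differed by -0.13 ± 0.27 (edgeR adjusted p = 0.798). Myeloid markers, whose cells can also make Cxcl10, summed to 9.817 and 30.35 CPM in liver, 4.372 and 2.484 CPM in spleen and 14.43 and 124.6 CPM in lymph node. The cells of the B-cell- and myeloid-like class held 2 of the liver's 744 Cxcl10 UMIs and none in spleen or lymph node. Without that class the liver level was 2.48 ± 0.21 higher than spleen (edgeR adjusted p = 1.96e-10) and 2.34 ± 0.20 higher than lymph node (edgeR adjusted p = 4.87e-11). In liver 2 and 0 of the 9 myeloid markers were at 0, in spleen 6 and 5 and in lymph node 5 and 3.

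Only 327 cells, 1.978% of all, held the 895 Cxcl10 UMIs, and in the liver libraries the top 1% of cells held 74.1% and 71.65% of them. The Ifit-like cells, chosen by interferon-induced genes, stood at 571.3 and 565.5 CPM in liver, 219.5 and 171.4 CPM in spleen and 160.7 and 48.55 CPM in lymph node. The NF-kB-like cells stood at 227.6 and 198.4 CPM in liver and 109 and 186.5 CPM in spleen, with 4 UMIs in lymph node. Both classes together held 72.04% of the liver's Cxcl10 UMIs in 11.83% of its cells and 76.39% of the spleen's in 3.696%. For the lymph node it was 30.38% in 2.643% of its cells, with 42.5% and 17.95% of the UMIs in replicates 1 and 2. In the lymph node 40.51% of the UMIs lay in iNKT17-like cells, the most numerous class there, at 11.87 CPM (32 UMIs). Outside the Ifit-like and NF-kB-like cells the level was still 17.16 and 19.86 CPM in the liver libraries, against 1.338 and 3.482 CPM in spleen and 6.348 and 8.937 CPM in lymph node. Cycling-like liver cells contributed to it, at 76.83 and 76.98 CPM.

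Leaving out NF-kB-like cells, which were most frequent in liver, left the liver higher by 2.24 ± 0.25 than spleen (edgeR adjusted p = 8.34e-08) and by 1.74 ± 0.23 than lymph node (edgeR adjusted p = 4.14e-07). In iNKT1-like cells Cxcl10 stood at 11.37 and 10.43 CPM in liver, 1.354 and 3.352 CPM in spleen and 3.0 and 4.264 CPM in lymph node. Both liver libraries lay above the others, and no test is given, since Cxcl10 passed the filter in this class through them alone. The iNKT1-like liver level was not above that of liver iNKT17-like cells (12.63 CPM from 2 UMIs, 95% Poisson interval 1.529 to 45.62), and so few UMIs leave that level poorly known. What part of the iNKT1-like level came from free RNA was not tested.

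Ccl1, the ligand of Ccr8, was read 190 and 120 times in UMIs from lymph node (50.78 and 32.79 CPM), 4 and 0 times in the liver libraries and 0 times in both spleen libraries. Its 4 liver UMIs lay in 1 NF-kB-like cell. In the spleen, 0 of the cells in each library allows a share with a UMI of up to 0.1099% and 0.113%. Pooled by organ, the lymph node's 41.89 CPM was at least 104.9-fold higher than spleen, with a floor of 3 UMIs over both spleen libraries. It was 138.9-fold higher than the liver, with a counting interval of 53.69 to 512.8. The liver level rests on 1 cell, at 0.5609 CPM in replicate 1 and 0 in replicate 2, so the fold over liver is poorly known. Both libraries of the lymph node lay above all 4 others.

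The lymph node UMIs came from few cells (plot of Ccl1 per cell). A UMI was found in 38 and 23 cells, 1.44% and 0.8076% of the libraries. Of these 61 cells, 53 had 1 UMI, 4 had 3 to 7, and the 4 highest held 116, 34, 66 and 22, which together is 76.77% of the 310 lymph node UMIs. Without its highest cell, replicate 1 stood at 19.79 CPM and replicate 2 at 14.77 CPM, both still above all liver and spleen libraries. The UMIs of 1 cell are not independent of each other, so the counting interval above is too narrow for the number of producing cells.

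**Figure D5:**
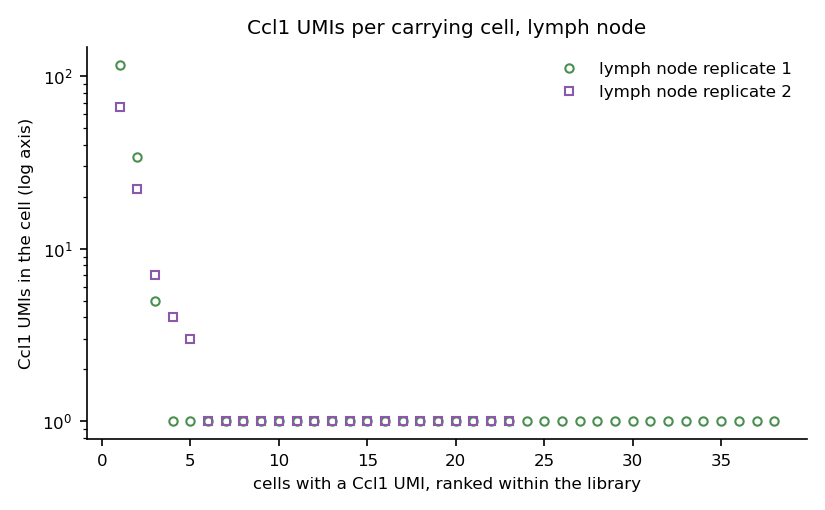
Ccl1 UMIs in each lymph node cell with at least 1, ranked within each library, on a log axis. In each library 2 cells stand far above the rest (116 and 34 UMIs in replicate 1, 66 and 22 in replicate 2), and most of the others have 1 UMI.

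The 4 highest cells fell in the iNKT2-like (116 and 22 UMIs), cycling-like (66) and unnamed (34) classes. The iNKT2-like cells of the lymph node held 160 Ccl1 UMIs, 51.61% of the organ's, at 177.3 and 63.87 CPM in the libraries. By library the share was 66.32% and 28.33%, and in replicate 2 the cycling-like cells held more, 60%. iNKT17-like cells held 14 and 10 UMIs and iNKT1-like cells 8 and 3, each in a cell with a single UMI, at 8.906 and 8.028 CPM over the organ. A single UMI per cell at like low levels in these classes is not read as expression there. Ccl1 was among the leading genes of the lymph node cluster of which the iNKT2-like and unnamed cells are parts. That ranking used summed UMIs and includes the cells with 116, 34 and 22, so it is not separate evidence. The liver and spleen iNKT1-like cells, 4009 and 3677 in number, had no Ccl1 UMI.

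Ccl4, also known as macrophage inflammatory protein 1-beta, had 164 UMIs in 83 cells. Its libraries read 25 and 29 UMIs in liver (3.506 and 4.731 CPM), 10 and 16 in spleen (2.572 and 4.417 CPM), and 70 and 14 in lymph node (18.71 and 3.825 CPM). Lymph node replicate 1 stood apart, and replicate 2 lay within the range of the other organs. Over all cells no difference passed, the lymph node being 1.52 ± 0.73 above liver (edgeR adjusted p = 0.171) and 1.68 ± 0.84 above spleen (edgeR adjusted p = 0.264) on the log2 scale, and liver 0.16 ± 0.91 above spleen (edgeR adjusted p = 0.924). Both differences from the lymph node were called without the filter on low counts (edgeR adjusted p = 1.85e-04 and 4.74e-04) and without lymph node replicate 2 (2.89e-05 and 8.35e-05). Without lymph node replicate 1 the liver-lymph node difference was 0.049 (edgeR adjusted p = 0.958). Without NF-kB-like cells, which held 20 of the spleen's 26 Ccl4 UMIs, the spleen-lymph node difference was called (-3.53 ± 0.76, edgeR adjusted p = 0.00598). Leaving them out took away most of the spleen's UMIs, so that call is not read as a result.

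The class with the most Ccl4 UMIs differed between the organs, and each organ also had some in other classes. Gzma-like cells held 30 of the liver's 54 UMIs, in 9 cells, and NF-kB-like cells 20 of the spleen's 26, in 5 cells. For the lymph node, iNKT1-like cells held 31 of its 84. With so few cells, the difference in class between organs is poorly known. In iNKT1-like cells the libraries read 4 and 3 UMIs in liver, 1 each in spleen, and 26 and 5 for lymph node, spread over 12 and 5 cells. Most of them lay in lymph node replicate 1, without which Ccl4 did not pass the filter on low counts in this class. Per UMI sequenced, the class stood at 0.8122 and 0.8232 CPM in liver, 0.4514 and 0.4788 CPM in spleen, and 39.0 and 7.107 CPM in lymph node, so both lymph node libraries lay above the others.

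Ccl3, or macrophage inflammatory protein 1-alpha, had 25 UMIs in 12 cells, with 1 and 9 in the liver libraries, 2 and 0 in those of the spleen, and 3 and 10 in those of the lymph node. The liver libraries overlapped those of both other organs, while both spleen libraries lay below both lymph node ones per UMI sequenced. Ccl3 did not pass the filter on low counts. Without that filter no pair of organs was called, the nearest being spleen against lymph node (-2.59 ± 1.07 on the log2 scale, edgeR adjusted p = 0.0986), the 1 pair below 0.05 before adjustment. DESeq2 called none. Gzma-like cells held 11 of the UMIs in 5 cells, 4 of which also had Ccl4. A single B-cell- and myeloid-like cell of lymph node replicate 2, the library with the most myeloid marker UMIs, held 7, and it too had Ccl4.

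Some cells held more than 1 of the ligands. At 1000 UMIs per cell, 80.37% of cells with an Xcl1 UMI also had a Ccl5 UMI, against 58.06% of the cells without. The gap was small in liver (81.71% against 76.92%), larger in spleen (93.96% against 77.31%) and largest in lymph node (48.01% against 19.71%). Of the 40 thinned cells with Ccl4, 31 had Ccl5 and 21 had Xcl1 (52.5%, against 16.92% of other cells). Ccl5 was found in 71.0% of the 100 liver cells with Cxcl10, against 77.99% of the other liver cells, in 10 of 13 such spleen cells (76.92%, against 80.68%) and in 7 of 29 from lymph node (24.14%, against 22.56%). All 33 thinned cells with Ccl1 were of the lymph node, and 6 of them had Ccl5 (18.18%, against 22.6% of the other lymph node cells). Of the 6 ligands none was seen in 18.04% of the liver cells, 18.04% of the spleen cells and 71.01% of those from lymph node, and 2 were seen in 16.82%, 19.07% and 5.029%.

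The genes whose levels across cells were most like a ligand's are given by the mean over 6 libraries of the within-library correlation, over 8658 genes found in at least 1% of cells. Cells of a library share their depth and class mix, so these are descriptions without a test. Nearest to Ccl5 were Nkg7, a protein of cytotoxic granules (r = 0.324, from 0.200 to 0.441 over libraries), AW112010 (0.248), Xcl1 (0.205) and the NK receptor gene Klrd1 (0.197). Nearest to Xcl1 were Ccl5 and Nkg7 (both 0.205), AW112010 (0.157) and Klrb1c, which encodes NK1.1 (0.137). The 4 nearest to Cxcl10 were all interferon-induced, Rsad2 (0.125), Ifit1 (0.123), Isg15 (0.115) and Iigp1 (0.109), at weak values. For Ccl4, Ccl3 and Ccl1 the highest means were 0.080 (Tyrobp), 0.093 (Tyrobp) and 0.033 (Apitd1), which in counts this sparse are no finding.

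Receptors of some of the ligands were also measured in these cells. Ccr8, the receptor of Ccl1, had 24.32 and 18.31 CPM in lymph node and 0 to 1.122 CPM in the other libraries, so it was highest in the organ with nearly all of the Ccl1 UMIs. It passed the filter through its lymph node UMIs alone. Cxcr3, the receptor of Cxcl10, stood at 497.2 and 512.9 CPM in liver, 468.6 and 373 CPM in spleen and 206.6 and 176 CPM in lymph node. It was 1.34 ± 0.12 higher in liver than lymph node (edgeR adjusted p = 1.47e-10), but unlike Cxcl10 it was not called between liver and spleen. Ccrl2, a non-signalling receptor, was higher in lymph node than in liver (-0.85 ± 0.17, edgeR adjusted p = 2.28e-04) and spleen. Xcr1, the receptor of Xcl1, had 24 UMIs in all libraries together and was not tested.

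Other chemokine ligand genes were nearly silent. Of 29 listed, 27 were found, 10 of them had no UMI, 15 had at most 22, and only Ccl25 (371 UMIs) and Cxcl2 (49) were tested. Ccl25 was 1.12 ± 0.23 lower in liver than in spleen on the log2 scale (edgeR adjusted p = 4.16e-04). Cxcl2, a neutrophil attractant, passed the filter through its lymph node UMIs alone. The 6 ligands were therefore set beside genes of the pathways that induce or accompany them, by the number called first for liver against spleen, then for liver and last for spleen against lymph node. Genes that passed the filter through 1 organ alone are left out of these counts. Over all genes tested 25.9%, 37.5% and 18.2% were called in these comparisons, and within iNKT1-like cells 24.8%, 20.4% and 7.96%. Cytotoxic granule genes had 2, 4 and 3 of 5 called over all cells, all higher in the first organ, with Gzmb 4.35 ± 0.22 above spleen in liver (edgeR adjusted p = 4.61e-11) and Gzma 1.70 ± 0.19 (edgeR adjusted p = 6.54e-08). The list's median log2 differences were 0.23, 2.03 and 1.02, beside 0.02, 0.01 and 0.00 over all genes tested. Within iNKT1-like cells 1, 2 and 1 of 4 were called, again all higher in the first organ. Nkg7 of this list was also a marker used to name the iNKT1-like class. Over all cells Ccl5 was lower in lymph node than in liver, as 4 of these genes were, but unlike Gzmb it was not higher in liver than in spleen.

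T cell receptor response genes had 3, 6 and 6 of 7 called over all cells, of which 5 and 5 in the comparisons with lymph node were higher there, with Nr4a1, an immediate early gene, 3.33 ± 0.23 above liver (edgeR adjusted p = 4.7e-09). Within iNKT1-like cells 1, 5 and 4 of 6 were called, all lower in the first organ. Nr4a1 is also among the leading genes of the lymph node cluster that holds most lymph node cells of this class. Interferon response genes had 3, 4 and 4 of 9 called over all cells, the first and second count near the share over all genes. Against the lymph node all 4 were higher in liver and in spleen, with Irf1 1.37 ± 0.13 higher in liver (edgeR adjusted p = 1.33e-09). Within iNKT1-like cells 4 were called between liver and spleen and 4 between liver and lymph node, 2 in each direction both times, and 1 between spleen and lymph node, lower in spleen. Of this list Ifit1, Ifit3, Isg15, Rsad2, Usp18 and Irf7 also named the Ifit-like class, which is outside the iNKT1-like class. The counts within iNKT1-like cells therefore depend in part on how classes were named.

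NF-kB response genes had 4, 6 and 4 of 10 called over all cells. Between liver and spleen the 4 were higher in liver, with Irf8 at 2.17 ± 0.17 (edgeR adjusted p = 5.54e-11), between liver and lymph node they split into 3 and 3, and between spleen and lymph node the 4 were lower in spleen. Within iNKT1-like cells the direction between liver and spleen was another, with 1 higher and 4 lower in liver, among them Nfkbia (-0.90 ± 0.13, edgeR adjusted p = 1.85e-10). There 7 were called between liver and lymph node, with 6 of them lower in liver; against the lymph node the spleen had 4 called, all lower in spleen. The NF-kB-like class held 526 liver and 76 spleen cells, and it is outside the iNKT1-like class. It was named from genes of this list (Gadd45b, Icam1, Nfkbia, Irf8, Relb, Nfkb1 and Tnfaip3). These counts within iNKT1-like cells thus also depend in part on the naming. Effector cytokine genes had 5, 7 and 7 of 10 called over all cells, in both directions in each comparison. Within iNKT1-like cells 4, 4 and 2 of 9 were called, of which 2, 3 and 2 were lower in the organ named first (liver, liver and spleen). Ifng, which encodes interferon-γ, was 0.96 ± 0.23 higher in liver than in spleen over all cells (edgeR adjusted p = 0.0149). In iNKT1-like cells, with the lymph node cluster part in the class, it was 0.38 ± 0.14 higher in liver than in spleen (edgeR adjusted p = 0.0390) and lower than in lymph node in both liver (-1.57 ± 0.14, edgeR adjusted p = 1.9e-25) and spleen (-1.95 ± 0.16, edgeR adjusted p = 2.28e-33). All 44 UMIs of Il17a lay in the lymph node libraries.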

How the data were processed

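Sorted iNKT cells were profiled with 10x Chromium 3′ v2 chemistry, which counts 1 tag near the 3′ end of each captured transcript. Per the labels, reads were aligned to mm10 with Cell Ranger 3.1.0 and analysed in Seurat; the deposited matrices hold UMI counts per gene and barcode, as the authors made them, unnormalized. The molecule is labelled nuclear RNA, although whole cells were sorted. Cells with 300 to 4000 genes and at most 15% mitochondrial UMIs were kept, as in the study, which kept fewer cells than this leaves. 112 ribosomal, rRNA and haemoglobin genes were left out, as were the 6 ligands for clustering (scanpy 1.11.5, leidenalg 0.10.2). Doublets were not removed, and leaving out the top 2% of Scrublet scores (334 cells) was an alternative. UMIs were summed per library (and class) and tested with edgeR 4.0.16 (R 4.3.3): TMM, filterByExpr with a minimum count of 10, the quasi-likelihood test and Benjamini-Hochberg adjustment. A standard error is the log2 difference over the square root of its F statistic. The RTE-like fit, its interaction with the iNKT1-like class, and the fits without Gzma-like cells, without NF-kB-like cells and with other limits of the lymph node cluster were added after seeing the data.

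Between 3622413 and 7131225 UMIs per library enter the CPM. Intervals (95%) and the floor of 3 counts cover counting error only. DESeq2 1.42.0, library totals, no filter, a replicate block, each library left out, thinning, other clusterings and other class limits were alternatives. Calculations were tested on simulated data. Promoters came from RefSeq (GRCm38.p6), where 4 of the 6 ligands matched, and positions from GENCODE on GRCm38. In addition to the 6 ligands, genes were named as the up to 4 most alike by correlation, and from each list as the up to 4 called with the largest difference; other listed genes are given for their link to a ligand. The ligands, lists and rules were chosen with earlier results of these data known. Results for 1 listed gene are not reported here.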

Additional observations from a re-analysis of the deposited data

Results flagged for a closer look

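In RTE-like cells the organ differences of Ccl5 and Xcl1 were not those of iNKT1-like cells, by a test of the interaction between class and organ. Between liver and spleen, the log2 difference of Ccl5 was -0.64 in iNKT1-like cells and 0.22 (not called) in RTE-like cells, apart by 0.81 ± 0.09 (edgeR adjusted p = 7.63e-09), and that of Xcl1 was -0.36 and 0.95, apart by 1.26 ± 0.23 (edgeR adjusted p = 9.56e-05), where 0.777% of 7977 genes tested were called. Between liver and lymph node, that of Ccl5 was 1.22 and 2.21, apart by 1.02 ± 0.14 (edgeR adjusted p = 1.59e-06), and that of Xcl1 was -0.49 and 1.81, apart by 2.33 ± 0.38 (edgeR adjusted p = 3.42e-06), where 1.39% were called. The liver-lymph node values rest on the part of the lymph node cluster: without it they were 0.62 ± 0.17 for Ccl5 (edgeR adjusted p = 0.0515) and 1.31 ± 0.46 for Xcl1 (edgeR adjusted p = 0.307), and with the whole cluster in the class 0.25 ± 0.13 (edgeR adjusted p = 0.498) and 1.69 ± 0.39 (edgeR adjusted p = 0.00236). The liver-spleen values kept their calls under both. The iNKT1-like Xcl1 value of -0.36 was not called by DESeq2 (adjusted p = 0.590) and was 0.37 at Leiden resolution 0.3. The interaction was not tested at other resolutions. Between spleen and lymph node neither ligand passed, Ccl5 differing by 0.20 ± 0.14 (edgeR adjusted p = 0.754) and Xcl1 by 1.07 ± 0.40 (edgeR adjusted p = 0.261), where 1.08% were called. With the whole cluster in the class, that of Ccl5 changed direction and was called (-0.56 ± 0.13, edgeR adjusted p = 0.00141). Without liver replicate 2 the liver-spleen interaction of Xcl1 was 1.05 (edgeR adjusted p = 0.371), and without spleen replicate 1 it was 0.89 (edgeR adjusted p = 0.0891). Without lymph node replicate 1 the liver-lymph node interaction of Ccl5 was 0.55 (edgeR adjusted p = 0.198). RTE-like and iNKT1-like cells came from the same libraries, and the Xcl1 values rest on 82, 115 and 12 RTE-like UMIs in liver, spleen and lymph node. The shares of RTE-like cells with Ccl5 overlapped those of iNKT17-like cells in their intervals, while their Ccl5 level was 51.32%, 38.41% and 61.11% of the level over all cells in liver, spleen and lymph node, above the iNKT17-like 22%, 16.47% and 18.73%. What part free RNA has in them was not tested.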

How the results depend on the processing

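Of the log2 differences and interactions of single ligands under the alternatives, 378 kept their direction and side of the threshold, 23 lost a call, 6 gained one and 18 changed direction, leaving out ligands that passed the filter through 1 organ alone. Over all cells, Cxcl10 between liver and spleen ranged from 2.15 to 2.87, Ccl5 between liver and lymph node from 2.36 to 2.62 and Xcl1 there from 0.73 to 1.32, each called throughout. Replicate numbers did not pair the samples (correlation of same-numbered deviations 0.068 to 0.086 over all cells); with a replicate block, 2 ligands were called between liver and spleen in place of 1, Ccl5 joining at -0.28 (edgeR adjusted p = 0.0442), and Xcl1 between spleen and lymph node was lost (0.0595). DESeq2 also called 1 of the 2 between spleen and lymph node over all cells. Counts of calls leave out the same ligands. In iNKT1-like cells, the 2 ligands called between liver and spleen became 1 under DESeq2, with library totals, with thinned libraries, at Leiden resolution 0.3 and with the whole lymph node cluster, and 1 to 2 leaving out single libraries (1 without liver or spleen replicate 1). The 2 between liver and lymph node became 1 under DESeq2, at Leiden resolutions 1.0 and 0.3 and with the whole cluster, and 1 to 2 leaving out single libraries (1 without liver or lymph node replicate 1). In each of these cases Xcl1 was lost and Ccl5 was kept. The 1 between spleen and lymph node became 2 at resolution 1.0, without the cluster part and with the whole cluster, as Xcl1 joined. In RTE-like cells, the 1 called between liver and spleen became 0 under DESeq2, which gave Xcl1 no adjusted p, 2 without the filter, with Cxcl10, and 0 to 1 leaving out single libraries, and the 2 between liver and lymph node became 1 under DESeq2 and 1 to 2 leaving out single libraries.

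Changes of direction with a replicate left out were: Ccl4 over all cells between liver and spleen, from -0.21 to 0.62 (negative without spleen replicate 1 or liver replicate 2), and between liver and lymph node, from -2.25 to 0.049 (positive without lymph node replicate 1); Cxcl10 between spleen and lymph node, from -0.52 to 0.20 (positive without spleen replicate 1); Xcl1 in iNKT1-like cells between spleen and lymph node, from -0.47 to 0.32 (positive without lymph node replicate 1 or spleen replicate 2); and the Ccl5 interaction between spleen and lymph node, from -0.28 to 0.62 (negative without lymph node replicate 1). Ccl4 between liver and spleen was also -0.019 with thinned libraries, -0.96 without Gzma-like cells and, in iNKT1-like cells, where its test is not counted, -0.44 when clustered without regression. iNKT1-like Xcl1 was 0.37 between liver and spleen at resolution 0.3; against the lymph node it was 0.47 for liver and 0.96 for spleen at resolution 1.0, 0.64 and 1.01 without the cluster part, and 0.14 and 0.51 with the whole cluster. The Ccl5 interaction between spleen and lymph node was -0.20 without the cluster part and -0.56 with the whole cluster (edgeR adjusted p = 0.00141). The cause was not tested. Ccl4 over all cells was called without the filter (edgeR adjusted p = 1.85e-04 and 4.74e-04 against lymph node) and without lymph node replicate 2, and between spleen and lymph node without NF-kB-like cells. The NF-kB-like cells held most of the spleen's Ccl4 UMIs.

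Scaling by library totals in place of TMM took the median log2 difference from 0.02 to 0.12 at most (liver against lymph node, iNKT1-like cells) and moved the split of higher against lower calls between liver and spleen from 1315 and 1340 to 1645 and 982 over all cells, from 1147 and 1149 to 1454 and 800 in iNKT1-like cells, and between liver and lymph node iNKT1-like cells from 811 and 1080 to 1159 and 817. Ccl5 and Cxcl10 kept their calls under both over all cells. The share of all genes called moved as well. Between liver and spleen over all cells DESeq2 called 1331 of 9634 genes, against 2655 of 10251 by edgeR. Between spleen and lymph node it called 1021 of 11159, against 1870 of 10251. Leaving out any single library also lowered the liver-spleen share. Depth limits Ccl3, Ccl4 and spleen Ccl1, each with few or no UMIs in a library.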
